A study of Homo sapiens with 12 samples.

Results

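The genes described here are 10 named genes of prostaglandin and leukotriene metabolism, of 64253 genes in the deposited count table: PTGS1, PTGS2, PTGES, PTGES2, HPGD, HPGDS, PTGER2, PTGER4, ALOX5 and ALOX5AP. They were chosen by gene name as a classic pathway of salicylate action, with earlier results of these data known, and they took up 11 rows of the table because ALOX5 was also listed on an alternate contig, where it had 0 reads. The data are poly(A) RNA libraries of JEKO-1, a line of human mantle cell lymphoma cultured in RPMI-1640 with fetal bovine serum. At 48 h the cells had been given 1 of 4 treatments, each with 3 libraries: the solvent DMSO alone, CS (choline salicylate), KPT-330 (the drug selinexor, which blocks the nuclear export receptor XPO1), and both drugs together (KPT-330 with CS). All 12 libraries came from this 1 cell line and from the same time point. The doses used for these libraries, and whether a group's 3 libraries were separate cultures, are not given in the sources at hand. The p-values therefore measure only how these libraries vary, and that variation may be technical. The comparison addresses how a salicylate acts on cells with and without inhibition of XPO1.

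Prostaglandins are made from arachidonic acid that phospholipases free from membranes. The cyclooxygenases PTGS1 (COX-1, in many cells constitutive) and PTGS2 (COX-2, in many cells inducible) turn it into prostaglandin H2, terminal synthases such as PTGES, PTGES2 and HPGDS turn that into prostaglandin E2 or D2, and HPGD inactivates prostaglandin E2. Prostaglandin E2 acts on cells through the receptors EP2 (PTGER2) and EP4 (PTGER4), which raise cyclic AMP. Arachidonic acid is also the substrate of 5-lipoxygenase (ALOX5), which works with its membrane partner ALOX5AP (FLAP) to make leukotrienes and is known from mature B cells. Salicylate, the parent compound of aspirin, is a weak cyclooxygenase inhibitor that lacks the acetyl group aspirin transfers to these enzymes. The libraries measure RNA levels, and not cyclooxygenase activity or the amount of prostaglandin made.

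The labelled cell type was checked against its markers. The 6 B cell markers reported here (MS4A1, CD79A, CD79B, PAX5, CD22 and BLK) were each at 1 CPM (the gene's share of the library's counts, TMM-scaled) or more in every group, with summed levels between 1819 and 2639 CPM, and CCND1 and SOX11, markers of mantle cell lymphoma, summed to 393 to 665 CPM. The summed T cell markers were at 1.00 to 1.26 CPM in DMSO, 0.54 to 0.79 in CS, 3.66 to 4.0 in KPT-330 and 1.76 to 2.33 in KPT-330 with CS. The summed monocyte and macrophage markers were at 3.35 to 5.83 CPM in DMSO and at 2.18 to 2.63 CPM in the other groups, with FCGR1A at 0. The markers of this list did not move together. From DMSO to KPT-330 LYZ went from 2.10 to 0.71 CPM and CD68 from 1.19 to 0.61, and CD14 and CD163 were also lower. CSF1R went from 0.32 to 0.69 CPM and ITGAM from 0.039 to 0.20. ALOX5 and ALOX5AP are also known from neutrophils, mast cells and macrophages. Of 6 neutrophil markers, MPO, ELANE, FCGR3B, S100A8 and S100A9 were at 0 in all 12 libraries and CSF3R had 8 reads in all. Of 6 mast cell markers, CPA3, TPSAB1 and TPSB2 were at 0 and KIT, HDC and MS4A2 had 80, 10 and 2 reads; their sum was at 0.073 to 0.32 CPM in DMSO, 0.041 to 0.12 in CS, 0.26 to 0.32 in KPT-330 and 0.027 to 0.10 in KPT-330 with CS. The summed platelet, epithelial and fibroblast markers were also low, and higher in KPT-330 than in DMSO: 0.63 to 1.03 against 0.097 to 0.31 CPM, 2.40 to 3.34 against 0.61 to 0.97 CPM, and 2.65 to 3.01 against 0.87 to 1.76 CPM. With both drugs these sums were at 0.45 to 0.64, 1.71 to 2.35 and 1.63 to 2.67 CPM. Most of the epithelial sum came from EPCAM (0.44 CPM in DMSO, 1.77 in KPT-330) and most of the fibroblast sum from PDGFRB (1.30 and 2.56 CPM). Among the platelet, epithelial and fibroblast markers PF4, GP1BA, GP9, KRT19 and LUM were at 0 in all libraries. The part of these low levels in the results was not tested. In bulk RNA of this kind, fewer cells that express a gene and less of its RNA per cell cannot be told apart.

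The sequences just before the start of 3 members are shown because these members span the range of levels in these cells: PTGS2 had no reads, PTGS1 was expressed at a low level, and ALOX5AP was the most abundant member per base of length. Each is the 250 bases upstream of a RefSeq start (GRCh38.p14; for PTGS1, which has a second listed start, the first), 5′ to 3′ on the gene's own strand, and capitals mark matches to the motifs searched on both strands.
PTGS2 upstream, chr1:186680424-186680673, minus strand: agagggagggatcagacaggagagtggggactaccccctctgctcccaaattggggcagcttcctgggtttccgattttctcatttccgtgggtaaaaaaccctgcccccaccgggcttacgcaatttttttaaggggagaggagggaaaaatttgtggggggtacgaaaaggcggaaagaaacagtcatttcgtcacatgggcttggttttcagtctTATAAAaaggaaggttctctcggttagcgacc
PTGS1 upstream, chr9:122370283-122370532, plus strand: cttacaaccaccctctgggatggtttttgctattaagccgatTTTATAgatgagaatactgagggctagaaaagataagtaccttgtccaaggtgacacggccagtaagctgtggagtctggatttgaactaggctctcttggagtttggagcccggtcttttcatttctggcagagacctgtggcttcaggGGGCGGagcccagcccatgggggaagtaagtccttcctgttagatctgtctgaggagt
ALOX5AP upstream, chr13:30713235-30713484, plus strand: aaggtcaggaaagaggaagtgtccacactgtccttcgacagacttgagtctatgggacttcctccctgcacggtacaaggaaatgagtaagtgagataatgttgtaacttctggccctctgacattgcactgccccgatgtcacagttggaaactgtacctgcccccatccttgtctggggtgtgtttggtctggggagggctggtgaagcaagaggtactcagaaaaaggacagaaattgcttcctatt

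The motifs were the GC box (GGGCGG), the TATA box (TATAAA), the cyclic AMP response element (TGACGTCA), the E box (CACGTG) and the NF-kappaB motif (GGGRNNYYCC). In the last, R is A or G, Y is C or T and N is any base. Only full matches to these letters were counted, so variant sites of these motifs were not marked. The PTGS2 window held a TATA box from -32 to -27, counted from the start, and no other full match. Of 35116 windows of the same length upstream of RefSeq starts, 10.7% held a TATA box, 42.6% a GC box, 1.65% the cyclic AMP response element, 6.34% an E box and 9.96% the NF-kappaB motif. The PTGS1 window held a GC box from -58 to -53 and a minus-strand TATA box from -208 to -203, and the ALOX5AP window held no match. No printed match overlapped another. The second PTGS1 window (chr9:122375052-122375301), not printed, had 65.2% GC and a minus-strand GC box from -202 to -197. The 3 printed windows, of ALOX5AP, PTGS1 and PTGS2, had similar GC contents of 49.6%, 49.6% and 50.4%, below the median of 58.0% over all windows, and CpG observed-over-expected ratios of 0.198, 0.269 and 0.585 against a median of 0.558. A GC-rich, CpG-rich window was found before members with many reads and before members with few: the PTGER4 window had 72.8% GC, a CpG ratio of 0.817 and 4 GC boxes, and the PTGER2 window had 74.0% GC, a CpG ratio of 0.845 and 2 GC boxes. A match is only a run of letters, and a window without matches says nothing of the factors bound there.

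Of the 10 members, 8 had at least 1 read and 5 had enough to pass the filter on low counts. PTGS2 (chr1:186671791-186680427, hg38), the inducible cyclooxygenase, and HPGDS (chr4:94298535-94342876), the haematopoietic prostaglandin D synthase, had 0 reads in all 12 libraries. Over the 12 libraries together, 0 reads allow a level of up to 0.00513 CPM, and within a group up to 0.0229 CPM for DMSO, 0.0200 for CS, 0.0187 for KPT-330 and 0.0209 for both drugs. These limits take 3 reads as the most that a count of 0 allows and cover counting error only. HPGD, PTGER2 and PTGES followed with 46, 21 and 18 reads in all, and 28113 genes of the table likewise had no read.

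HPGD (chr4:174490177-174523154), which inactivates prostaglandin E2, was read in every library, with 1, 4 and 2 reads in DMSO, 6, 3 and 4 in CS, 7, 5 and 3 in KPT-330 and 6, 3 and 2 in KPT-330 with CS. The groups overlapped, and no ratio between groups stood apart from 1: the ratio of KPT-330 to DMSO, from 15 and 7 reads, was 1.75 with a 95% exact interval of 0.672 to 5.07 for counting error only.

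PTGES (chr9:129738331-129753047), the inducible microsomal prostaglandin E synthase, had 0, 1 and 2 reads in DMSO, none in CS, 3, 2 and 4 in KPT-330 and 6, 0 and 0 in KPT-330 with CS. KPT-330 was the group in which all 3 libraries held PTGES reads. Its 9 reads against none in CS put the ratio of CS to KPT-330 at 0.541 or less (upper end of the 95% exact interval), and its 9 reads against 3 in DMSO gave a ratio of 2.45 with an interval of 0.611 to 14.1.

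PTGER2 (chr14:52314305-52328606), which encodes the receptor EP2, had 0 reads in all 3 DMSO libraries, 5, 0 and 0 in CS, 0, 3 and 1 in KPT-330 and 0, 6 and 6 in KPT-330 with CS. The libraries of a group differed from each other: the 12 reads of KPT-330 with CS came from replicates 2 and 3, and the 5 reads of CS from replicate 1. The exact 95% interval of the ratio of KPT-330 with CS to DMSO, from 12 and 0 reads, began at 2.53; it covers counting error only and does not include the spread between libraries. Without the filter on low counts PTGER2 passed edgeR's test in this comparison at an adjusted p of 0.049, and neither PTGES nor HPGD passed in any comparison.

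**Figure D1:**
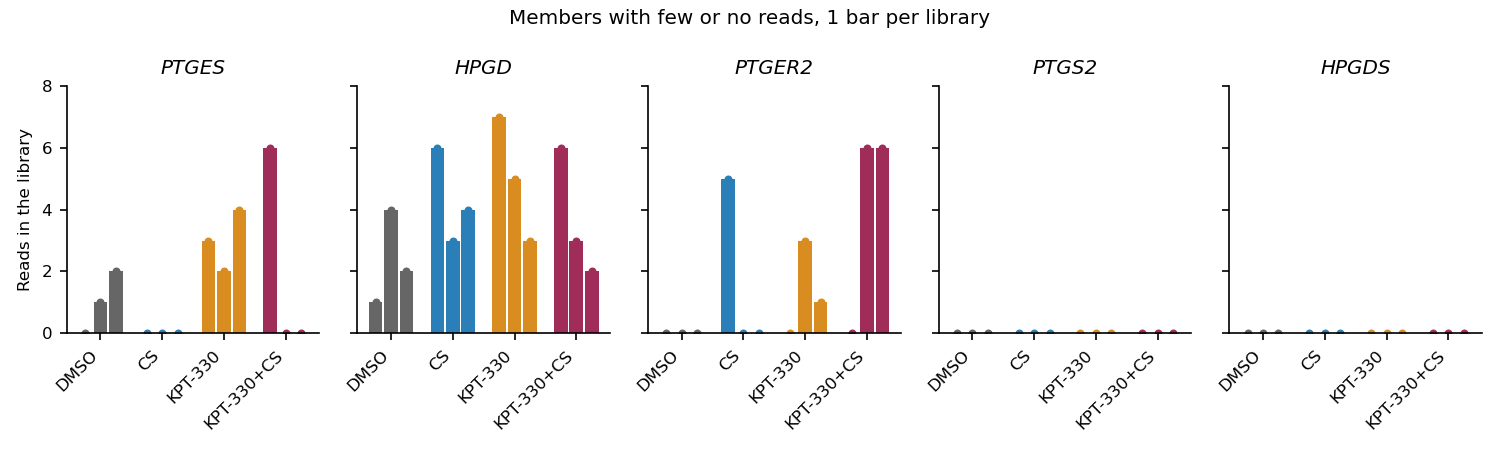
Reads in each library (vertical axis, raw counts, 0 to 8) of the 5 members with few or no reads; each bar is 1 library, grouped by treatment, and a dot on the axis marks a library with 0 reads. No library held more than 7 reads of any of them, and the PTGS2 and HPGDS panels hold no bar.

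The 5 members with enough reads were PTGS1, PTGES2, PTGER4, ALOX5 and ALOX5AP, with 6027, 7650, 9307, 30555 and 60073 reads over the 12 libraries. None shares exon bases with another gene in the GENCODE 44 annotation, so the unknown strand setting of the counting bears little on them. Per length (RPKM, the CPM divided by the gene's length in kilobases), the order in DMSO was ALOX5AP at 79.96 ± 2.88 (SD, n = 3), ALOX5 at 12.05 ± 2.03, PTGES2 at 4.49 ± 1.55, PTGER4 at 3.45 ± 0.0154 and PTGS1 at 1.61 ± 0.0871. PTGES2 and PTGER4 overlapped in DMSO, and the other neighbours in this order did not. PTGES and HPGD stood far below, at 0.0128 and 0.0101 RPKM. The per-length order of the 5 members with enough reads was the same in CS, where PTGES2 was at 5.16 ± 1.33 RPKM and PTGER4 at 3.51 ± 0.127. In both groups with KPT-330 PTGER4 stood above PTGES2, at 5.01 ± 0.0723 against 4.52 ± 0.434 RPKM with KPT-330 alone and at 3.99 ± 0.266 against 2.81 ± 0.670 RPKM with both drugs, without overlap between the 2 genes in either group.

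**Figure D2:**
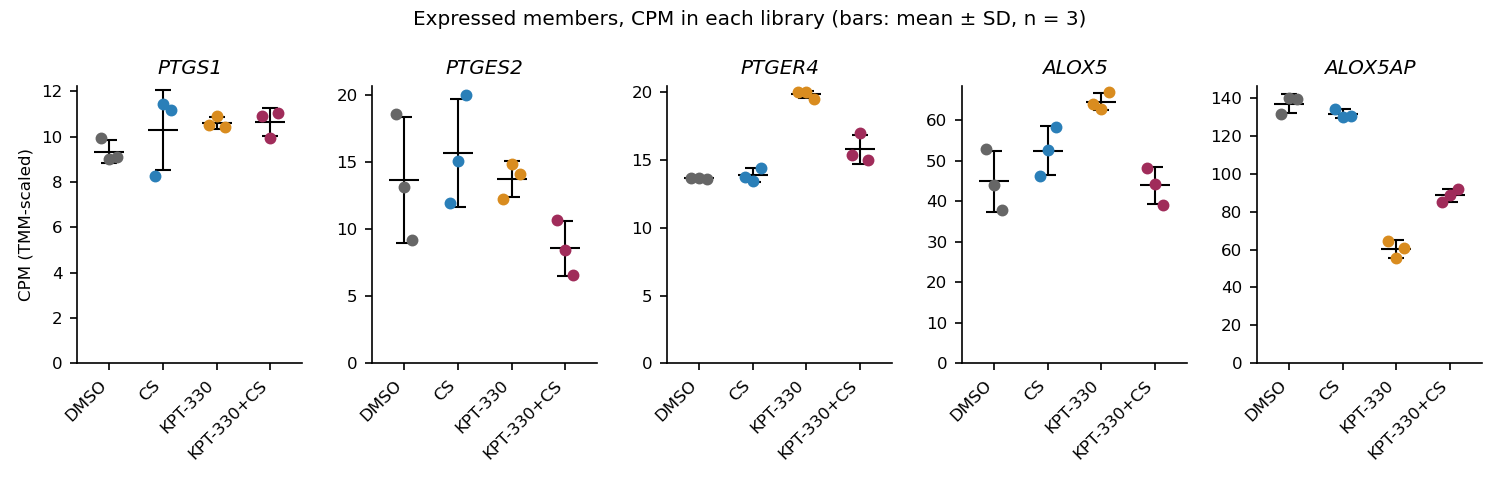
CPM (vertical axis, TMM-scaled, linear from 0) of the 5 expressed members in each of the 12 libraries by treatment (points), with the group mean and SD (bars, n = 3). ALOX5AP falls from 137 CPM in DMSO to 60.3 in KPT-330 and sits between them at 88.6 with both drugs, PTGER4 and ALOX5 are highest in KPT-330, and PTGS1 is nearly level.

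PTGS1 (chr9:122370530-122395703), the cyclooxygenase with reads in these cells, showed no difference that passed the test between any of the groups. Its levels were 9.92, 9.001 and 9.09 CPM in DMSO, 8.26, 11.4 and 11.2 in CS, 10.5, 10.9 and 10.4 in KPT-330 and 10.9, 9.92 and 11.1 in KPT-330 with CS. The CS libraries spread over and beyond the range of DMSO, and the KPT-330 libraries lay just above it. The log2 fold changes against DMSO were 0.14 ± 0.11 (SE) for CS, 0.18 ± 0.11 for KPT-330 and 0.19 ± 0.11 for both drugs, with adjusted p of 0.529, 0.201 and 0.182 in edgeR's quasi-likelihood test. Scaled by library size alone, in place of TMM, the last of these were 0.34 (adjusted p = 0.0301) and 0.37 (adjusted p = 0.0175); this scaling moved the median of all genes from 0.04 to 0.20 for KPT-330 and from 0.04 to 0.23 for both drugs. KPT-330 with CS against KPT-330 gave 0.00 ± 0.11 (adjusted p = 0.978).

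PTGES2 (chr9:128120693-128128462), which encodes the membrane-associated prostaglandin E synthase 2, was lowest in the cells given both drugs. It was at 18.6, 13.2 and 9.19 CPM in DMSO, 11.96, 15.1 and 19.98 in CS, 12.3, 14.8 and 14.1 in KPT-330 and 10.6, 8.43 and 6.57 in KPT-330 with CS. The 3 libraries with both drugs lay below every CS and every KPT-330 library, and the highest of them lay above the lowest DMSO library. PTGES2 fell by 0.88 ± 0.24 on the log2 scale in KPT-330 with CS against CS (adjusted p = 0.00911). The call against CS was lost with no filter (adjusted p = 0.0671). Against KPT-330 PTGES2 fell by 0.68 ± 0.24 (adjusted p = 0.041), a call kept in 6 of 11 other settings and in 1 of the 6 fits that left out a library, that without replicate 1 of KPT-330 with CS (-0.88, adjusted p = 0.0225), with -0.52 (adjusted p = 0.152) without its replicate 3. Against DMSO it also fell by 0.68 ± 0.24 (adjusted p = 0.0303), a call kept in 6 of 11 other settings and in 2 of 6 such fits, and without DMSO replicate 1 the value was -0.39 (adjusted p = 0.223). CS alone and KPT-330 alone gave 0.20 ± 0.24 (adjusted p = 0.699) and 0.01 ± 0.24 (adjusted p = 0.987) against DMSO.

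PTGER4 (chr5:40679498-40693735), which encodes the prostaglandin E2 receptor EP4, was higher after KPT-330 and between DMSO and KPT-330 with both drugs. Its levels were 13.7, 13.7 and 13.6 CPM in DMSO, 13.8, 13.5 and 14.4 in CS, 20.0, 20.0 and 19.5 in KPT-330 and 15.4, 17.0 and 15.0 in KPT-330 with CS. Every KPT-330 library lay above all others, and the libraries with both drugs lay between them and the overlapping DMSO and CS libraries. KPT-330 raised PTGER4 1.455-fold against DMSO, a log2 fold change of 0.54 ± 0.07 (adjusted p = 4.09e-05). Adding CS to KPT-330 lowered it by 0.33 ± 0.07 (adjusted p = 0.0026), so that with both drugs it was 0.21 ± 0.07 above DMSO (adjusted p = 0.0236). The last of these calls was kept in 6 of 11 other settings and lost with no filter (adjusted p = 0.12), with DESeq2 (0.0898) or its size factors (0.057), with the likelihood ratio test (0.0658) and with the compared groups alone (0.0605). Leaving out DMSO replicate 2 gave an adjusted p of 0.0649, and leaving out replicate 2 of KPT-330 with CS gave 0.15 at an adjusted p of 0.122. CS alone gave 0.03 ± 0.07 (adjusted p = 0.887).

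ALOX5 (chr10:45374176-45446119), 5-lipoxygenase, was highest with KPT-330 alone and stood near the DMSO level with both drugs. It was at 52.9, 43.95 and 37.9 CPM in DMSO, 46.3, 52.8 and 58.4 in CS, 64.0, 62.9 and 67.0 in KPT-330 and 48.3, 44.3 and 39.1 in KPT-330 with CS. All 3 KPT-330 libraries lay above the 9 others, which overlapped from group to group. The log2 fold change of KPT-330 against DMSO was 0.52 ± 0.12 (adjusted p = 0.00222), a 1.44-fold rise, and that of KPT-330 with CS against KPT-330 was -0.56 ± 0.12 (adjusted p = 0.00216). With both drugs ALOX5 differed from DMSO by -0.03 ± 0.12 (adjusted p = 0.825). CS alone gave 0.22 ± 0.12 against DMSO (adjusted p = 0.276), and 0.36 (adjusted p = 0.0443) without DMSO replicate 1.

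ALOX5AP (chr13:30713478-30764426), which presents arachidonic acid to 5-lipoxygenase, had the largest change among the 5 tested members. It was at 131, 140 and 140 CPM in DMSO, 134, 130 and 131 in CS, 64.7, 55.3 and 60.9 in KPT-330 and 85.1, 88.9 and 91.8 in KPT-330 with CS. The KPT-330 libraries lay below all others, the libraries with both drugs stood apart above them, and DMSO and CS overlapped. KPT-330 lowered ALOX5AP to 0.440 of its DMSO level, a log2 fold change of -1.19 ± 0.06 (adjusted p = 9.3e-09). With both drugs it was at 0.646 of DMSO, -0.63 ± 0.06 (adjusted p = 1.24e-06), and so higher than with KPT-330 alone by 0.56 ± 0.06 (adjusted p = 1.74e-05). CS alone gave -0.06 ± 0.06 against DMSO (adjusted p = 0.638). The calls for ALOX5AP held under every alternative that was run.

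The partners ALOX5 and ALOX5AP moved in opposite directions with KPT-330. The per-length ratio of ALOX5AP to ALOX5 was 5.40, 6.94 and 8.01 in the DMSO libraries, 6.31, 5.36 and 4.86 in CS, 2.20, 1.91 and 1.97 in KPT-330 and 3.83, 4.36 and 5.11 in KPT-330 with CS. The 3 KPT-330 libraries had the lowest ratios, and the 3 libraries with both drugs overlapped CS and lay below DMSO. The group means were 6.79 ± 1.31, 5.51 ± 0.737, 2.03 ± 0.151 and 4.43 ± 0.644 (SD, n = 3).

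**Figure D3:**
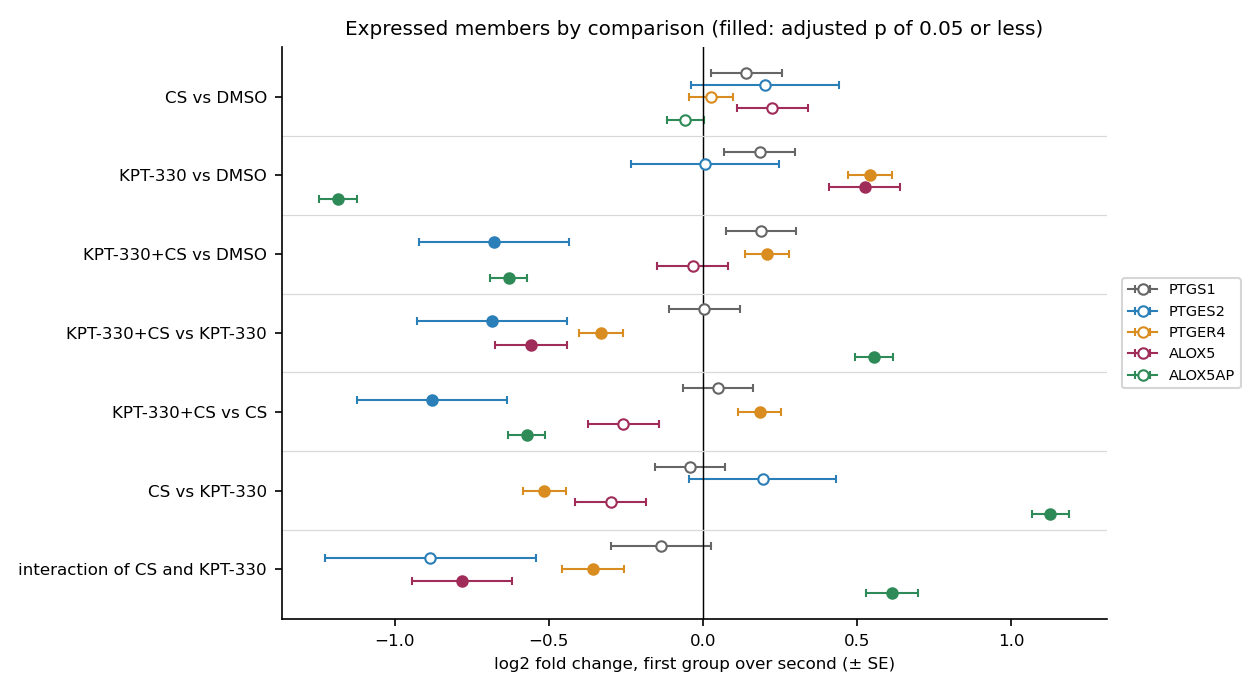
Log2 fold changes of the 5 expressed members (horizontal axis, first group over second, ± SE) in the 7 comparisons; filled points had an adjusted p of 0.05 or less in edgeR's quasi-likelihood test. No point is filled for CS against DMSO, and ALOX5AP lies farthest left for KPT-330 against DMSO at -1.19.

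Counted over the comparisons, 0 of the 5 tested members passed the test for CS against DMSO, where 8.88% of all tested genes did (1729 of 19460), and no member's libraries stood apart, where those of 22.7% of all genes did. For KPT-330 against DMSO 2 members were higher and 1 lower, against 48.5% of all genes called, and 4 had libraries that did not overlap between the groups, against 57.7% of all genes. For KPT-330 with CS against DMSO 1 was higher and 2 lower, with 55.5% of all genes called. For KPT-330 with CS against KPT-330 1 was higher and 3 were lower, with 37.6% called. With so many genes called, the members' shares in these comparisons do not set them apart from the genes at large. The comparisons with DMSO share its 3 libraries, and none of the 5 tested members reached the study's own limit of an absolute log2 fold change over 2.0.

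Further contrasts set CS against KPT-330 and both drugs against CS. For CS against KPT-330 1 member was higher and 1 lower, with 42.8% of all genes called: ALOX5AP was 1.13 ± 0.06 higher in CS (adjusted p = 2.27e-08) and PTGER4 was 0.51 ± 0.07 lower (adjusted p = 7.92e-05), while ALOX5 was at -0.30 ± 0.12 (adjusted p = 0.0505). For KPT-330 with CS against CS 1 member was higher and 2 lower, with 47.8% of all genes called. In it ALOX5AP fell by 0.57 ± 0.06 (adjusted p = 4.6e-06), PTGER4 gave 0.18 ± 0.07 (adjusted p = 0.0484, kept in 3 of 11 other settings and in 1 of 6 fits that left out a library, that without replicate 3 of KPT-330 with CS), and ALOX5 gave -0.26 ± 0.12 (adjusted p = 0.0829). In each of these contrasts ALOX5 was called in 5 of 11 other settings and in 1 of 6 fits that left out a library.

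Whether the effect of CS differed with and without KPT-330 was tested as an interaction, in which 1 member was higher and 2 were lower and 14.7% of all genes were called. The effect of CS on ALOX5AP was 0.61 ± 0.09 higher on the log2 scale with KPT-330 than without it (adjusted p = 0.000511). For ALOX5 it was 0.78 ± 0.16 lower (a difference of -0.78, adjusted p = 0.00719), and for PTGER4 -0.36 ± 0.10 (adjusted p = 0.0313), with -0.41 to -0.32 and a call kept in 6 of 10 other settings and in 4 of the 12 fits that left out a library. PTGES2 gave -0.88 ± 0.34 (adjusted p = 0.102) and PTGS1 -0.14 ± 0.16 (adjusted p = 0.61). The interaction of PTGES2 was called in 3 of 10 other settings and in 1 of the 12 fits that left out a library.

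The libraries differed in how counts depended on the GC content of genes. The slope of a library's log2 deviation per 10 percentage points of GC was 0.087, -0.130 and -0.314 in DMSO, -0.229, -0.102 and 0.059 in CS, 0.203, 0.195 and 0.228 in KPT-330 and 0.128, 0.026 and -0.1504 in KPT-330 with CS. PTGES2 and ALOX5 are the most GC-rich of the expressed members, at 59.2% and 55.6%, and within DMSO, CS and KPT-330 with CS their libraries stood in the order of this slope. PTGS1, PTGER4 and ALOX5AP have 50.7%, 49.7% and 48.2% GC. With counts corrected for GC over all libraries, the change of ALOX5 with KPT-330 was 0.29 (adjusted p = 3.54e-06) and that of PTGES2 with KPT-330 was -0.39 (adjusted p = 0.00654), where the uncorrected value was 0.01. The same correction gave -1.16 (adjusted p = 5.84e-14) for ALOX5AP and 0.52 (adjusted p = 6.09e-07) for PTGER4. Over the 11 other settings, this correction among them, PTGES2 with both drugs ran from -0.70 to -0.44 against KPT-330. Against CS it ran from -1.01 to -0.75, and against DMSO from -0.83 to -0.50. In the correction the GC trend of all genes is taken out, so a real change that follows GC content would be taken out with it.

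**Figure D4:**
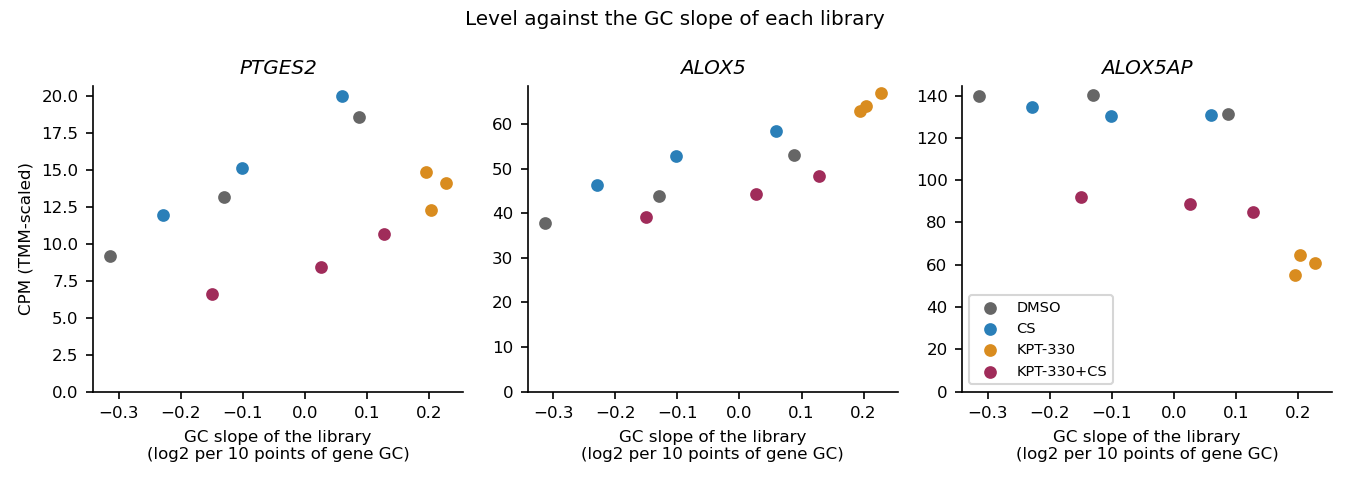
CPM (vertical axis, TMM-scaled, from 0) of PTGES2, ALOX5 and ALOX5AP against the GC slope of each library (horizontal axis, log2 per 10 percentage points of gene GC), 1 point per library, coloured by treatment. Within DMSO, CS and KPT-330 with CS the levels of PTGES2 and ALOX5 rise with the slope, and the 3 KPT-330 libraries sit together at slopes of 0.195 to 0.228.

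The genes whose levels followed each expressed member most closely over the 12 libraries were looked up among 14204 genes by the Pearson correlation of log2 CPM; the 12 points share treatment groups and library effects, and no test is attached. For ALOX5AP they were RPL7AP6 (r = 0.994, a ribosomal protein pseudogene whose reads may belong to near copies), TBC1D9 (0.989) and NXPE3 (0.988). TBC1D9 stood at 91.0 CPM in DMSO, 75.9 in CS, 32.1 in KPT-330 and 52.9 with both drugs. For PTGER4 they were HLA-DPB2 (0.981, a pseudogene), DLG5 (0.979) and PIM1 (0.978), a kinase gene at 168 CPM in DMSO, 172 in CS, 265 in KPT-330 and 205 with both drugs. For ALOX5 they were VPREB3 (0.983), IMP4 (0.980) and PCED1B (0.980). For PTGES2 they were TNFRSF13B (0.984), PPP1R9B (0.978) and ATP2A3 (0.975). PTGS1 had no gene as close: AP5S1 led with 0.884, followed by the pseudogenes GUSBP9 (0.855) and DNM1P47 (0.852).

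The other genes of the pathway were taken from 8 lists with 98 genes, of which 87 had reads and 62 were tested. The counts called in these lists stand against 8.88% of all tested genes called for CS, 48.5% for KPT-330 and 55.5% for both drugs against DMSO, and 37.6% for both drugs against KPT-330. For CS against DMSO 3 of the 62 were higher and 4 lower, with a median log2 fold change of 0.01 against -0.01 for all genes. For KPT-330 against DMSO 23 were higher and 20 lower (median 0.07 against 0.04), for KPT-330 with CS against DMSO 16 higher and 21 lower (median -0.00 against 0.04), and for KPT-330 with CS against KPT-330 13 higher and 20 lower (median -0.07 against -0.00). The counts that involve KPT-330 include calls of TBXA2R or DPEP1, which passed the filter on low counts only through groups with KPT-330, where they were high.

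Among enzymes that release arachidonic acid (11 of 21 tested), 1 was lower with CS, 4 were higher and 1 lower with KPT-330, and 5 were higher and 2 lower with both drugs, against DMSO. The gene that fell with CS was MGLL, monoacylglycerol lipase, at 75.4 ± 6.78 CPM in DMSO and 54.0 ± 4.48 in CS (-0.48 ± 0.08, adjusted p = 0.00202; 0.0708 with the 2 groups fitted alone). With KPT-330 it fell by 0.76 ± 0.08 (adjusted p = 4.33e-06). PLA2G4A, the cytosolic phospholipase A2 selective for arachidonic acid, was 1.16 ± 0.21 higher with both drugs than with KPT-330 (adjusted p = 0.000755), at 1.77 ± 0.30 against 0.79 ± 0.19 CPM. Of genes for fatty acid supply and esterification (10 of 12 tested), 0 were called with CS, 4 were higher and 6 lower with KPT-330, and 1 was higher and 7 lower with both drugs. ELOVL5, an elongase of polyunsaturated fatty acids, fell by 0.78 ± 0.08 with KPT-330 (adjusted p = 3.89e-06) and by 0.97 ± 0.08 with both drugs (adjusted p = 2.39e-07).

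Of the other prostaglandin and thromboxane synthases (6 of 9 tested), 1 was higher and 1 lower with CS, 3 were higher and 1 lower with KPT-330, and 1 was higher and 3 lower with both drugs. PTGES3, the cytosolic prostaglandin E synthase that is also the p23 co-chaperone of HSP90, was lower in all 3 comparisons with DMSO. It stood at 1522 ± 151 CPM in DMSO, 1137 ± 51.8 in CS, 967 ± 12.6 in KPT-330 and 760 ± 40.9 with both drugs, changes of -0.42 (adjusted p = 0.00303; 0.0699 with the 2 groups fitted alone), -0.66 (adjusted p = 7.71e-06) and -1.001 (adjusted p = 7.49e-08). TBXAS1, thromboxane A synthase, fell by 1.02 ± 0.19 when CS was added to KPT-330 (adjusted p = 0.000938), from 2.70 ± 0.33 to 1.33 ± 0.20 CPM. Of 7 other prostanoid receptors only TBXA2R, the thromboxane receptor, was tested. It had 8 reads in DMSO, 19 in CS, 101 in KPT-330 and 68 with both drugs, and it passed the filter on low counts through the groups with KPT-330, where it was high, so its difference from DMSO is given as levels only: 0.06 ± 0.03 CPM in DMSO and 0.63 ± 0.13 in KPT-330. PTGER1 and PTGER3, the other prostaglandin E2 receptors, had 3 and 12 reads over the 12 libraries.

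Of the prostaglandin transport and breakdown genes (4 of 8 tested), 1 was higher with CS, 2 with KPT-330 and 2 with both drugs, where ABCC4, a transporter that exports prostaglandin E2, fell by 0.67 ± 0.13 (adjusted p = 0.000764). Of the other lipoxygenases and leukotriene enzymes (7 of 14 tested), 0 were called with CS, and 3 were higher and 1 lower both with KPT-330 and with both drugs. The 3 higher with KPT-330 include DPEP1, a dipeptidase with 54 reads there, 3 in DMSO, 4 in CS and 9 with both drugs. It passed the filter on low counts through KPT-330, where it was high, so its call adds no support. LTC4S, leukotriene C4 synthase, had 17 reads over the 12 libraries. DPEP2, a dipeptidase that can process leukotriene D4, was at 0.77 ± 0.16 CPM in DMSO, 2.20 ± 0.05 in KPT-330 (1.51 ± 0.20, adjusted p = 3.75e-05) and 3.49 ± 0.80 with both drugs (2.17 ± 0.19, adjusted p = 6.54e-07); its exons overlap those of DUS2 on the opposite strand. CYSLTR1, a receptor for cysteinyl leukotrienes, fell by 0.58 ± 0.08 with KPT-330 (adjusted p = 9.32e-05), and 2 of the 3 tested leukotriene receptors were lower in that comparison and none higher. With CS 1 of the 3 was lower and with both drugs 2 were, LTB4R and LTB4R2, and none was higher. LTB4R and LTB4R2 share 355 exon bases on the same strand, so their calls may not be independent. LTB4R2 also shares 304 exon bases with NOP9 on its own strand and 1276 with CIDEB on the opposite strand. NOP9 had 70669 reads over the 12 libraries against 4424 for LTB4R2. With both drugs LTB4R gave -0.26 ± 0.08 (adjusted p = 0.0111), a call kept in 7 of 11 other settings. The gene that fell with CS was LTB4R, at -0.37 ± 0.08 (adjusted p = 0.0108, and 0.129 with the compared groups fitted alone). Of the genes of cyclic AMP signalling downstream of EP2 and EP4 (20 of 21 tested), 1 was higher and 1 lower with CS, 6 were higher and 9 lower with KPT-330, and 3 were higher and 5 lower with both drugs.

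**Figure D5:**
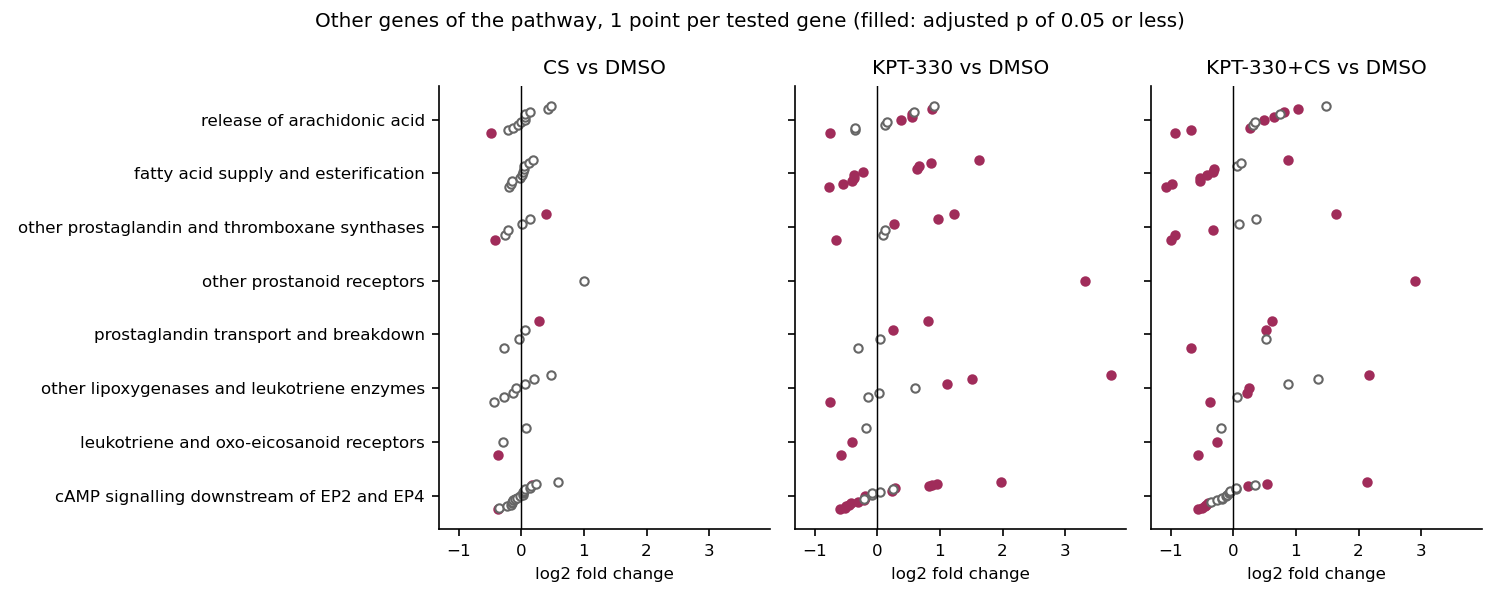
Log2 fold changes against DMSO (horizontal axes) of the 62 tested genes of the 8 pathway lists, 1 point per gene, in 3 panels for CS, KPT-330 and both drugs; filled points had an adjusted p of 0.05 or less. The CS panel holds 7 filled points, and the KPT-330 panel 43 on both sides of 0. These 43 include TBXA2R and DPEP1, which passed the filter on low counts only through groups with KPT-330, where they were high.

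Total counts were 35325563 to 59490178 per library. The spread between libraries was smallest in KPT-330, with a biological coefficient of variation of 2.88%, against 15.9% (DMSO), 11.8% (CS) and 11.0% (both drugs); the fit shares 1 estimate of spread over the groups. Of the calls over all genes for KPT-330 against DMSO, 4815 were higher and 4631 lower, and with scaling by library size alone 6651 were higher and 2905 lower. The splits under that scaling were 7606 and 3363 for both drugs against DMSO (5711 and 5095 with TMM), 1365 and 714 for CS against DMSO (731 and 998), 6549 and 3029 for both drugs against CS (5081 and 4216), and 2926 and 5489 for CS against KPT-330 (3925 and 4400).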

How the data were processed

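The authors deposited 1 table of raw read counts, whole numbers for 64253 genes in 12 libraries (4 groups of 3, by the labels; 35325563 to 59490178 counts per library). Per the series design text, reads were aligned to hg38 with STAR and counted per gene on Ensembl version 78, and the study used edgeR with TMM normalization; per the labels, the RNA came from an extraction kit meant for FFPE material and the libraries were poly(A) selected. Which program counted the reads, with what strand setting, and the versions of the tools used, are not given in the sources at hand.

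Counts were tested with edgeR 4.0.16 (R 4.3.3): filterByExpr by group left 19460 genes, scaling was by TMM, and a robust two-sided quasi-likelihood F-test was fitted to the 12 libraries together by group (8 residual degrees of freedom). It gave 7 contrasts, each with Benjamini-Hochberg adjustment over the 19460 genes, and a gene was called at an adjusted p of 0.05 or less. Fold changes are first group over second. CPM used TMM-scaled library sizes, RPKM also the deposited gene length, and log2 CPM for likeness a prior count of 2. Ratios of members below the filter carry exact binomial 95% intervals for counting error only. Upstream sequences came from a RefSeq table (GRCh38.p14) that held 9 of the 10 members, and GC content, known for 97.0% of the tested genes, and exon overlaps from GENCODE 44.

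The members and the pathway and marker lists were chosen with earlier results of these data known. Of the fixed B cell markers, 1 is not reported here and is left out of their sum. From each list and comparison the naming rule took up to 3 called genes by size of change; the text gives a part of them, mostly those whose call held under all alternatives (47 of 67), a choice made after their values were seen. The rule also took 1 gene per list that was not called, and these are only counted. Alternatives were a stricter filter (1 CPM in 3 libraries) or none, DESeq2 size factors, library size alone, DESeq2 1.42.0, edgeR's likelihood ratio test, a block on the replicate number, the compared groups alone, a GC correction within groups (lowess, span 0.3) and each library left out. A GC correction over all libraries and a fit without the lowest-GC-slope libraries of DMSO, CS and KPT-330 with CS were chosen after seeing the data. The fits were tested on simulated data in which 200 genes changed. Matplotlib 3.10.9 (Python 3.11.15) drew the figures.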

Additional observations from a re-analysis of the deposited data

Results flagged for a closer look

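The results given here stood out because the effect of CS differed with and without KPT-330 by the interaction test over all 12 libraries in edgeR. Each value is the log2 effect of CS with KPT-330 minus that without it, with its SE and the adjusted p. Among the members these were ALOX5AP at 0.61 ± 0.09 (0.000511), ALOX5 at -0.78 ± 0.16 (0.00719) and PTGER4 at -0.36 ± 0.10 (0.0313). For ALOX5AP and ALOX5 every alternative kept the call. For PTGER4 the call was lost in 4 of 10 other settings and kept in only 4 of the 12 fits that left out a library.

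Of the 62 tested genes of the pathway lists 6 were higher and 7 lower in this contrast, where 14.7% of all genes were called. Among them, ELOVL2, a fatty acid elongase, gave -1.29 ± 0.15 (0.000169), and ADCY3, an adenylate cyclase whose exons overlap CENPO on the opposite strand, gave -1.11 ± 0.24 (0.00844; 0.0607 with no filter). MBOAT2, a lysophospholipid acyltransferase, gave -0.57 ± 0.12 (0.00671) and AKR1B1, an aldo-keto reductase, -0.47 ± 0.10 (0.00909). MGLL, monoacylglycerol lipase, gave 0.57 ± 0.11 (0.00408) and LTA4H, leukotriene A4 hydrolase, 0.51 ± 0.08 (0.00161). MGST2, a microsomal glutathione transferase, gave 0.82 ± 0.21 (0.0207), FAM213B, a prostamide and prostaglandin F synthase, -0.74 ± 0.23 (0.0445), and PTGR2, a prostaglandin reductase, 0.42 ± 0.13 (0.0475). PTGR2 shares 989 exon bases with another gene on its own strand, which had 50165 reads over the 12 libraries against 10185 for PTGR2. Of the 12 fits that left out a library, the call for FAM213B was kept in 3 (-0.97 to -0.61), that for PTGR2 in 2 (0.35 to 0.52) and that for MGST2 in 8 (0.71 to 0.93), and the GC correction over all libraries gave -0.35 for FAM213B and 0.23 for PTGR2. The other called genes of the lists, outside the naming rule and given after their values were seen, were PDE3B at 0.70 ± 0.11 (0.00167), PDE4B at 0.53 ± 0.10 (0.00341), CREBBP at -0.27 ± 0.08 (0.0363) and MBOAT7 at -0.62 ± 0.20 (0.0486). How the calls of these other genes held under the alternatives is not given here, and those of CREBBP and MBOAT7 lie near the threshold. PDE3B and PDE4B are phosphodiesterases that break down cyclic AMP.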

How the results depend on the processing

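The calls of ALOX5AP, those of PTGER4 for KPT-330 against DMSO, for both drugs against KPT-330 and for CS against KPT-330, and those of ALOX5 for KPT-330 against DMSO, for both drugs against KPT-330 and for the interaction held under all alternatives run. The number of members called kept within 1.5 times of the reported one except as follows. For CS against DMSO it was 1 in place of 0 with the GC correction within groups and over all libraries (ALOX5, at 0.23 and 0.20), and 0 to 1 with a library left out (1 without DMSO replicate 1). For KPT-330 with CS against DMSO it was 1 with the compared groups alone and 1 to 3 with a library left out (1 without DMSO replicate 2 and without replicate 2 of both drugs, against 3 reported). For KPT-330 with CS against CS it was 1 with no filter. The number of members with reads was 8 at 1 read or at 10. Over all genes, the count for CS against DMSO ran from 249 with the compared groups alone to 4650 with the GC correction within groups, and from 760 to 2580 with a library left out; that for the interaction ran from 1958 to 6998, and from 1713 to 4711 with a library left out. In the pathway lists, the genes called for CS against DMSO ran from 0 to 7 of 20 for cyclic AMP signalling (2 reported), 0 to 3 of 10 for fatty acid supply (0 reported) and 0 to 3 of 6 for other synthases (2 reported).

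The values that changed sign were all small and not called in the reported fit. For PTGS1, both drugs against KPT-330 gave -0.012 with no filter, -0.013 with the GC correction over all libraries, -0.024 without the lowest-GC-slope libraries and -0.025 to 0.049 with a library left out. PTGS1 for both drugs against CS gave -0.0082 and -0.12 under the last 2 of these settings and -0.089 to 0.13 with a library left out, and for CS against KPT-330 0.091 without the lowest-GC-slope libraries and -0.12 to 0.091 with a library left out. PTGES2 for KPT-330 against DMSO gave -0.017 with DESeq2 and -0.018 with its size factors, -0.39 with the GC correction over all libraries, -0.21 without the lowest-GC-slope libraries and -0.20 to 0.30 with a library left out, and for CS against KPT-330 -0.003 to 0.35 with a library left out. ALOX5 for both drugs against DMSO gave 0.0001 with the stricter filter, 0.15 with library size alone and -0.12 to 0.10 with a library left out, and ALOX5AP for CS against DMSO gave 0.0058 with library size alone. The cause of these shifts was not tested.

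The replicate numbers gave no sign of pairing: over 18 pairs of same-numbered libraries the correlation of deviations ran from -0.38 to 0.40, and 2 were over 0.1. Over 36 pairs of differently numbered libraries it ran from -0.42 to 0.40, and 4 were over 0.1. The deviations also hold the differences in GC slope between libraries, so this check cannot exclude pairing. With the replicate number as a block, the members called were 0 for CS, 3 for KPT-330 and 2 for both drugs against DMSO, 3 for both drugs against KPT-330, 2 for both drugs against CS, 2 for CS against KPT-330 and 2 for the interaction. At these depths PTGS2 and HPGDS have only an upper limit, and PTGES, HPGD and PTGER2 are given mainly as read ratios with wide counting intervals.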
